A study of Mus musculus with 6 samples.

Results

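The Myc and Max network was measured as 10 genes of the deposited count table, found by symbol among 54429 genes. They are the activators Myc, Mycn and Mycl, their partner Max, the Max-binding repressors Mxd1, Mxd3, Mxd4, Mxi1 and Mnt, and the related factor Mlx. The 6 libraries are ribodepleted RNA-seq of primary aortic endothelial cells (EC) from wild-type adult C57BL/6 mice. In 3 libraries (Meis1-OE) a lentiviral vector overexpressed Meis1, a homeobox transcription factor, and in the other 3 (YFP-CTRL) the cells received the control vector. All cells were a commercial primary EC stock in culture. They were transduced for 48 h, sorted at the 72 h time point for YFP, CD31 and VEC, and expanded to confluency before RNA was taken, so the controls share the vector, the sort and the expansion. The comparison asked how these genes differed in EC that expressed Meis1. Libraries are named by the letter (A, B or C) that their column carries, and values of a condition are always listed in that order.

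Myc is a transcription factor of the basic helix-loop-helix leucine zipper class and acts as a dimer with Max on a DNA motif called the E-box. Mxd proteins, Mxi1 and Mnt also dimerise with Max on E-boxes, where they recruit the Sin3 corepressor and histone deacetylases, so that Myc and these repressors compete for Max. Myc is best known for raising ribosome production, nucleotide and polyamine synthesis and cell growth, and in endothelium it is known as a factor needed for vessel growth. Mlx dimerises with some Mxd proteins, with Mnt and with the glucose-sensing Mondo factors in place of Max.

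Levels are given as CPM, the counts of a gene relative to the library's total, scaled with TMM factors that align the libraries on the bulk of their genes. Between 34176592 and 47956569 counts were assigned per library, and the abundant noncoding RNA Gm26917 took 8.06% to 14.1% of them. Meis1 itself was at 1.15 to 1.87 CPM in YFP-CTRL EC and 2961 to 3477 CPM in Meis1-OE EC (log2 fold change 11.07, edgeR adjusted p = 6.92e-06), with reads of the vector and of the mouse gene not separated. Endothelial identity was checked with 8 marker genes, whose summed level was 3209 to 3965 CPM in Meis1-OE EC and 4394 to 6034 CPM in YFP-CTRL EC, and the part of this difference in the results was not tested. Of 7 macrophage markers, C1qa, C1qb, Tyrobp and Adgre1 had no count, and the sum of the list was at most 0.903 CPM in any library. The sum of 7 fibroblast and smooth muscle markers was 0.677 to 3.61 CPM in all libraries except YFP-CTRL library C, where it was 21.1 CPM, of which 19.9 CPM was Acta2, and Lum had no count in any library. The YFP-CTRL libraries also stood apart from each other. The mean log2(CPM + 1) of 15 genes of dividing cells, called the proliferation score here, was 4.65, 5.52 and 6.70 in YFP-CTRL EC, against 6.73, 6.72 and 6.78 in Meis1-OE EC. Fold changes and counts of called genes were therefore also computed without YFP-CTRL library C (hereafter control C). They were also computed in a fit that held this score as a covariate, called the score-adjusted fit. Levels per kilobase, ratios between genes, correlations with Myc and spreads were computed on all libraries only. The Meis1-OE scores were nearly equal, so the slope on the score in that fit rests mostly on the YFP-CTRL libraries. The score was also taken from the same RNA, after transduction. The score-adjusted fit is therefore a description and cannot test the part of growth in the results.

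Myc (chromosome 15, 61985341 to 61990361 in RefSeq, GRCm38.p6) fell in Meis1-OE EC. It was at 71.6, 60.9 and 64.4 CPM in Meis1-OE EC, and at 285, 189 and 126 CPM in YFP-CTRL EC. All Meis1-OE libraries lay below all YFP-CTRL libraries, and the lowest control was library C. The mean was 65.6 ± 5.47 CPM against 200.1 ± 79.7 CPM (SD, n = 3 each), which the fit gave as a 3.05-fold lower level. Its log2 fold change was -1.61 (standard error 0.28), with an adjusted p of 0.0201 by the quasi-likelihood test of edgeR (Benjamini-Hochberg over 16065 genes). In bulk RNA, less Myc RNA per cell and fewer cells with Myc RNA cannot be told apart.

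The controls varied more than the Meis1-OE libraries for Myc, with a coefficient of variation of 39.8% against 8.33%. YFP-CTRL library C, whose proliferation score was near that of the Meis1-OE libraries, held 1.93 times their mean Myc level, a value from a single library with no test. Without that library the log2 fold change of Myc was -1.86 (edgeR adjusted p = 0.00107), and in the score-adjusted fit it was -0.90 (standard error 0.12, edgeR adjusted p = 0.0143). The call was lost without Meis1-OE library A, B or C (edgeR adjusted p = 0.0788, 0.118 and 0.106) and without control B (0.0849), while the log2 fold change in these fits lay between -1.67 and -1.55.

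The other activators were scarce. Mycn, a paralog of Myc best known from embryonic tissue and neuroblastoma, was counted 154, 141 and 156 times in Meis1-OE EC and 29, 86 and 312 times in YFP-CTRL EC. The Meis1-OE values of 3.37, 3.11 and 3.37 CPM lay inside the control range of 0.854 to 6.87 CPM. The log2 fold change was -0.01 (standard error 0.64, edgeR adjusted p = 0.995), and its sign depended on the libraries used. It was 1.12 without control C (edgeR adjusted p = 0.0712) and -1.13 in the score-adjusted fit (edgeR adjusted p = 0.0302). Within the controls, Mycn and Myc ran in opposite order, since Mycn was highest and Myc lowest in library C. Mycl was not tested, since no library held over 4 counts. Its count of 0 in Meis1-OE library B and in YFP-CTRL library A allows up to 0.0661 and 0.0883 CPM at the limit of 3 counts, for counting error only.

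**Figure D1:**
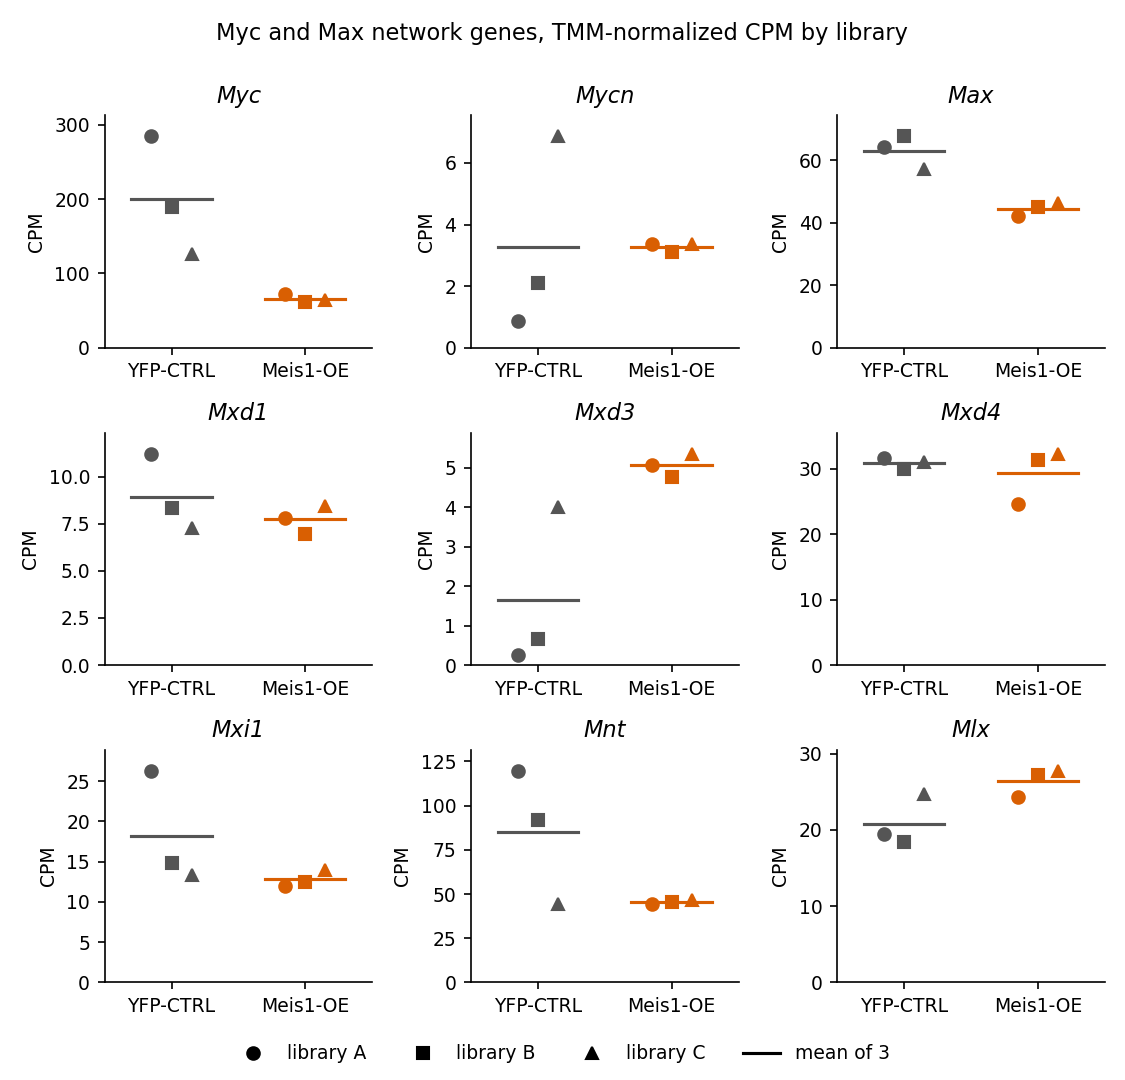
TMM-normalized CPM of the 9 tested network genes (vertical axes, linear and starting at 0) in YFP-CTRL (grey) and Meis1-OE (orange) EC, with a symbol for each library and a line at the mean of 3. Myc and Max lie lower in every Meis1-OE library, Mxd3 lies higher in every Meis1-OE library, and the grey points spread most for Myc, Mycn, Mxd3, Mxi1 and Mnt.

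Max (chromosome 12, 76937269 to 76962323), the shared partner, fell by a smaller amount. Its level was 42.1, 45.1 and 46.2 CPM in Meis1-OE EC, and 64.2, 67.7 and 57.1 CPM in YFP-CTRL EC. The conditions did not overlap, and the means were 44.4 ± 2.10 and 63.0 ± 5.40 CPM (SD, n = 3 each). Its log2 fold change was -0.50 (standard error 0.11), a 1.42-fold lower level with an adjusted p of 0.0454 from edgeR. Unlike Myc, Max was nearly level across the controls, at 1.12 times as much in library A as in library C. The call was close to the threshold. It was lost without any library other than YFP-CTRL library C (edgeR adjusted p = 0.0644 to 0.224), on library totals (0.0845), with no filter on low counts (0.0843) and in the score-adjusted fit (log2 fold change -0.40, edgeR adjusted p = 0.116). It was kept without control C (0.00382 from edgeR) and with DESeq2 (0.0107).

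With these, 2 of the 9 tested members, Myc and Max, were lower and 0 were higher at an adjusted p under 0.05, where 2.73% of all 16065 genes tested were lower and 4.14% were higher. At an unadjusted p under 0.05 the counts were 3 lower, with Mnt, and 0 higher. At that limit 2155 of the 16065 genes tested were lower and 2050 were higher. Myc and Max were the members with all Meis1-OE libraries below all YFP-CTRL libraries, as held for 15.9% of all genes, and Mxd3 was the member with all of them above, as held for 17.2% of all genes. The median log2 fold change was -0.21 over the 9 members and 0.01 over all genes tested. DESeq2 called 3 members lower (Myc, Max and Mnt) and 0 higher, where it called 6.14% of genes lower and 6.21% higher. Without control C, the same 3 members were lower and Mxd3 and Mlx were higher, where 15.2% of genes were lower and 16.5% were higher. In the score-adjusted fit, Myc and Mycn were lower and 0 were higher, where 1.80% of genes were lower and 2.26% were higher.

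Among the repressors, Mnt had the most negative log2 fold change and Mxd3 the most positive, and neither passed the threshold with all 6 libraries. Mnt, the broadly expressed antagonist of Myc, was at 44.3, 45.3 and 46.4 CPM in Meis1-OE EC. In YFP-CTRL EC it was at 120, 92.0 and 44.5 CPM. Control library C thus lay among the Meis1-OE libraries, while controls A and B lay far above them. The log2 fold change was -0.91 (standard error 0.32, edgeR adjusted p = 0.129, 0.0416 from DESeq2). It was -1.23 without control C (edgeR adjusted p = 0.00103) and -0.01 in the score-adjusted fit (edgeR adjusted p = 0.976).

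Mxd3, a family member known for expression in dividing cells, was counted 232, 216 and 248 times in Meis1-OE EC and 9, 27 and 182 times in YFP-CTRL EC. Its level was 5.08, 4.76 and 5.36 CPM against 0.265, 0.662 and 4.01 CPM. All Meis1-OE values lay above all controls, but within the controls it was 15.1 times as high in library C as in library A, and the proliferation score was also highest in library C and lowest in library A. Its log2 fold change was 1.60 (standard error 0.80, edgeR adjusted p = 0.254). It was 3.40 without control C (edgeR adjusted p = 0.0017) and 0.30 in the score-adjusted fit (edgeR adjusted p = 0.539). The Mxd3 locus shares 103 bases with Prelid1, which had 3820 to 9051 counts per library, and no source says that reads were counted by strand, so the low Mxd3 counts are uncertain.

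Mxd4, Mxi1 and Mxd1 overlapped between the conditions. Mxd4, a repressor linked to cells leaving the cycle, was at 24.5, 31.4 and 32.3 CPM in Meis1-OE EC and 31.6, 29.9 and 31.1 CPM in YFP-CTRL EC (log2 fold change -0.07, standard error 0.14, edgeR adjusted p = 0.786). It was the most even member across the controls, with a coefficient of variation of 2.84%. Mxi1 was at 12.0, 12.5 and 14.0 CPM in Meis1-OE EC and at 26.3, 14.8 and 13.4 CPM in YFP-CTRL EC, with control A alone far above the rest (log2 fold change -0.50, standard error 0.26, edgeR adjusted p = 0.272). Mxd1, which is known to rise when cells differentiate, was at 7.81, 6.96 and 8.42 CPM in Meis1-OE EC and at 11.2, 8.33 and 7.26 CPM in YFP-CTRL EC, again highest in control A (log2 fold change -0.21, standard error 0.20, edgeR adjusted p = 0.543). In the score-adjusted fit the values of Mxi1 and Mxd1 were 0.06 and 0.14. The Mxi1 locus shares 16740 bases with the noncoding RNA Gm30541, and the Mxd1 locus 9111 bases with the noncoding RNA Gm38850. The deposited count table gives no counts for these RNAs.

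Mlx was at 24.2, 27.3 and 27.7 CPM in Meis1-OE EC and at 19.4, 18.4 and 24.6 CPM in YFP-CTRL EC. Control C lay just above the lowest Meis1-OE library, and the other controls lay below all of them. The log2 fold change was 0.34 (standard error 0.15, edgeR adjusted p = 0.197), and it was 0.47 without control C (edgeR adjusted p = 0.0137) and 0.15 in the score-adjusted fit (edgeR adjusted p = 0.657). The Mlx locus shares 67 bases with Psmc3ip, which had 65 to 338 counts per library.

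**Figure D2:**
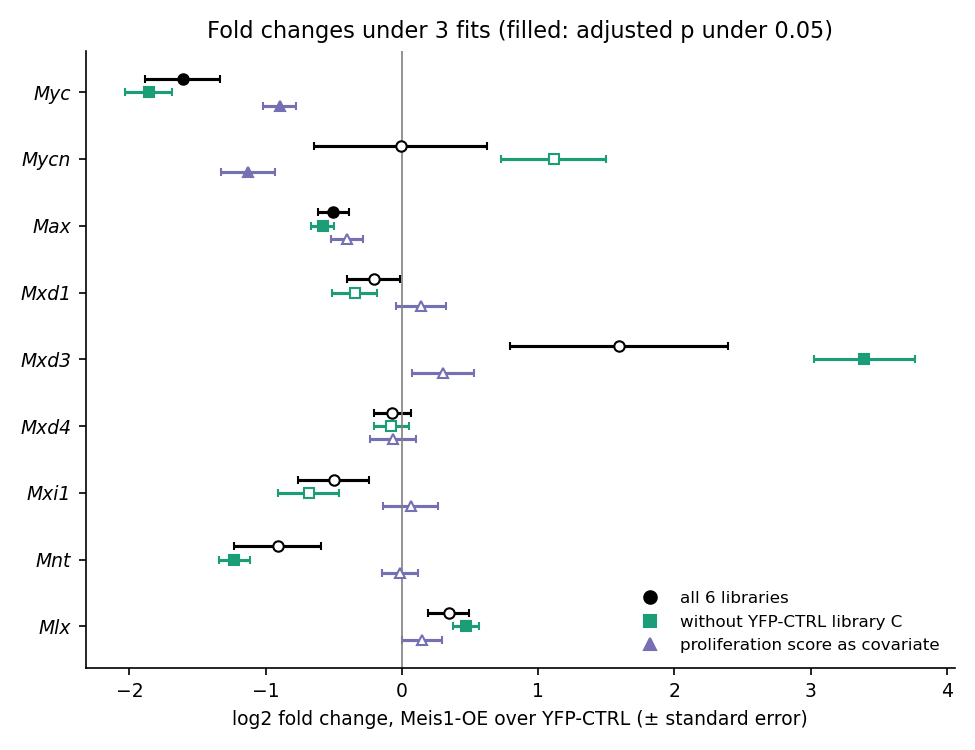
Log2 fold change of each tested network gene, Meis1-OE over YFP-CTRL, with its standard error (horizontal axis), from all 6 libraries (black circles), without control C (green squares) and in the score-adjusted fit (purple triangles), filled where the adjusted p is under 0.05. Myc is filled and negative in all 3 fits, from -1.86 to -0.90, while Mnt and Mxd3 lie near 0 in the fit with the covariate and far from it without library C.

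Levels can be compared between genes only per length, here as CPM per kilobase of exon. Myc was the most abundant member in YFP-CTRL EC, at 73.6 ± 29.3 CPM per kilobase (SD, n = 3), followed by Max at 31.4 ± 2.69 and Mnt at 18.4 ± 8.21. Mlx at 10.4 ± 1.68 and Mxd4 at 7.95 ± 0.226 came next, and Mxi1, Mxd1, Mycn and Mxd3 were at 3.23, 1.92, 0.995 and 0.790. In Meis1-OE EC, Myc at 24.2 ± 2.01 and Max at 22.2 ± 1.04 CPM per kilobase overlapped. Mlx at 13.2 ± 0.942 stood above Mnt at 9.80 ± 0.225, and Mxd4 was at 7.57 ± 1.09. Mxd3 at 2.43 ± 0.143 and Mxi1 at 2.28 ± 0.179 overlapped, and Mxd1 at 1.66 and Mycn at 0.997 were lowest.

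The balance between Myc and its antagonists followed from these levels. The ratio of Myc to the summed Mxd1, Mxd3, Mxd4, Mxi1 and Mnt, each in CPM per kilobase, was 1.19, 0.938 and 0.941 in Meis1-OE EC, and 2.54, 2.16 and 1.98 in YFP-CTRL EC. The ratio of Myc to Max was 1.25, 0.997 and 1.03 in Meis1-OE EC against 3.27, 2.06 and 1.63 in YFP-CTRL EC. Neither ratio overlapped between the conditions. The ratio of Max to the summed repressors did overlap, at 0.948, 0.941 and 0.913 in Meis1-OE EC and 0.778, 1.04 and 1.21 in YFP-CTRL EC. These ratios are descriptions of the 6 libraries and were given no test.

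The E-box that Myc, Max and the repressors recognise, CACGTG, is a palindrome and was looked for in the promoters of RefSeq, build GRCm38.p6, from 250 bases before to 50 bases after each start site. The submitters' processing notes name mm10 for the libraries, which is the same assembly. A promoter was matched for 9 of the 10 members, all except Myc, with 11 start sites in all. Of these 9 genes, 4 (44.4%) held the E-box, as did 8.09% of the 27025 genes with a promoter in the table. The windows are shown because dimers of Max recognise this motif. The motif is in capitals within 30 bases of the gene's own strand.
Max, chr12:76962234-76962263, minus strand: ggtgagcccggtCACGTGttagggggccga
Mnt, chr11:74830789-74830818, plus strand: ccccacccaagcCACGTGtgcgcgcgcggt
Mlx, chr11:101087238-101087267, plus strand: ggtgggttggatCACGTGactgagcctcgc
Mxd4, chr5:34187912-34187941, minus strand: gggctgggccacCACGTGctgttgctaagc
Relative to the start site the motif lay at -3 in Max, -40 in Mlx, -123 in Mnt and -219 in Mxd4. Of these genes Max was lower in Meis1-OE EC, and Mnt, Mlx and Mxd4 did not pass the threshold. A match of letters is a description and not evidence of binding.

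The core motif of Meis proteins, TGACAG, searched on both strands in the same promoters, was present in 5 of the 9 members (55.6%), against 21.6% of all genes with a promoter in the table. Windows of Max, the member with a match that fell, and of Mxd3 and Mycn, whose controls varied most, are shown with the motif or its reverse complement CTGTCA in capitals.
Max, chr12:76962368-76962397, minus strand: gcgccctgagctCTGTCAacaagcgagtct
Mxd3, chr13:55329697-55329726, minus strand: tggtaaggcggcTGACAGggctagcatccc
Mycn, chr12:12941817-12941846, minus strand: aagcgcagccagTGACAGtcatctgtctgg
Relative to the start site the motif lay at -137 in Max, 17 in Mxd3 and 2 in Mycn. Mxd1 and Mxd4 held the other matches. Of the members with a match, only Max passed the threshold with all 6 libraries, and Mxd1, Mxd3, Mxd4 and Mycn did not. Here too a match of letters is not evidence of binding, and binding of Meis1 was not tested.

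A list of 32 growth genes was made from general knowledge of Myc targets, with earlier results of these data known. Its counts and shares are therefore descriptions and not a test of Myc activity. Of the 32 genes, 13 were lower in Meis1-OE EC and 0 were higher at an adjusted p under 0.05 from edgeR. The share lower was 40.6%, against 2.73% of all genes tested. Values were negative on the log2 scale for 31 of the 32, with Ldha at 0.41 the exception, and the median was -0.73 against 0.01 over all genes. For 25 of the 32 (78.1%), all Meis1-OE libraries lay below all YFP-CTRL libraries, as they did for 15.9% of all genes.

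The polyamine enzyme Odc1, a classic Myc target, had the most negative value. It was at 150, 118 and 117 CPM in Meis1-OE EC and 333, 488 and 301 CPM in YFP-CTRL EC. Controls all lay far above the Meis1-OE values, and control C was close to control A. The log2 fold change was -1.55 (standard error 0.21, edgeR adjusted p = 0.00969). The call was lost without Meis1-OE library B or C (edgeR adjusted p = 0.0700 and 0.0664), and the log2 fold change was -1.42 in the score-adjusted fit (edgeR adjusted p = 0.0348).

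Nucleolar genes made up most of the list and most of the calls. Of 19 genes of nucleolar structure and ribosome biogenesis, a grouping made after the values were seen, 9 were lower, where 2.73% of all genes were, and 19 had a negative value, with a median of -0.83. These included Nop56 of the box C/D small nucleolar particle, Dkc1 of the H/ACA particle that guides pseudouridylation, and Rrp9, Rrs1 and Nop16, which take part in building the small and large ribosomal subunits. Rrs1 was at 51.6, 52.5 and 55.0 CPM in Meis1-OE EC and at 140, 117 and 76.0 CPM in YFP-CTRL EC. Nop56 was at 126, 105 and 106 CPM against 284, 224 and 163 CPM. Dkc1 was at 43.3, 39.0 and 38.6 CPM against 93.4, 75.0 and 65.1 CPM. In all 3 genes, as in Myc, control A was highest and control C lowest among the controls, and control C still lay above each Meis1-OE library. The log2 fold changes of Rrs1, Nop56, Dkc1, Nop16 and Rrp9 were -1.06, -0.99, -0.95, -0.90 and -0.88 (edgeR adjusted p = 0.0325, 0.0357, 0.0166, 0.0336 and 0.0287). In the score-adjusted fit Rrs1 (-0.54, edgeR adjusted p = 0.0460) and Dkc1 (-0.65, 0.0291) kept their calls, and Nop56 (-0.51, 0.0785), Nop16 (-0.50, 0.0576) and Rrp9 (-0.54, 0.0605) did not. All 5 calls were lost without any Meis1-OE library or without control B (edgeR adjusted p = 0.0610 to 0.180), those of Rrs1 and Nop56 also without control A (0.0517 and 0.0552), and all except that of Dkc1 on library totals (0.0514 to 0.0669). Of the other 13 growth genes, with roles in metabolism, protein folding, translation and the cycle, 4 were lower, against the same 2.73% of all genes, and the median was -0.49.

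The count of growth genes moved with the libraries used. Without control C, 25 of the 32 were lower (78.1%) and Ldha was higher, where 15.2% of all genes were lower and 16.5% were higher. In the score-adjusted fit 7 were lower (21.9%, against 1.80% of all genes), and these 7 were among the 13. Without Meis1-OE libraries A, B and C the counts were 2, 0 and 0, and leaving out control A or control B gave 9 and 2. On library totals, which raise the median log2 fold change of all genes to 0.15, 5 were lower. Genes called in the whole table numbered 665 higher and 438 lower with TMM factors and 1048 higher and 179 lower on library totals.

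**Figure D3:**
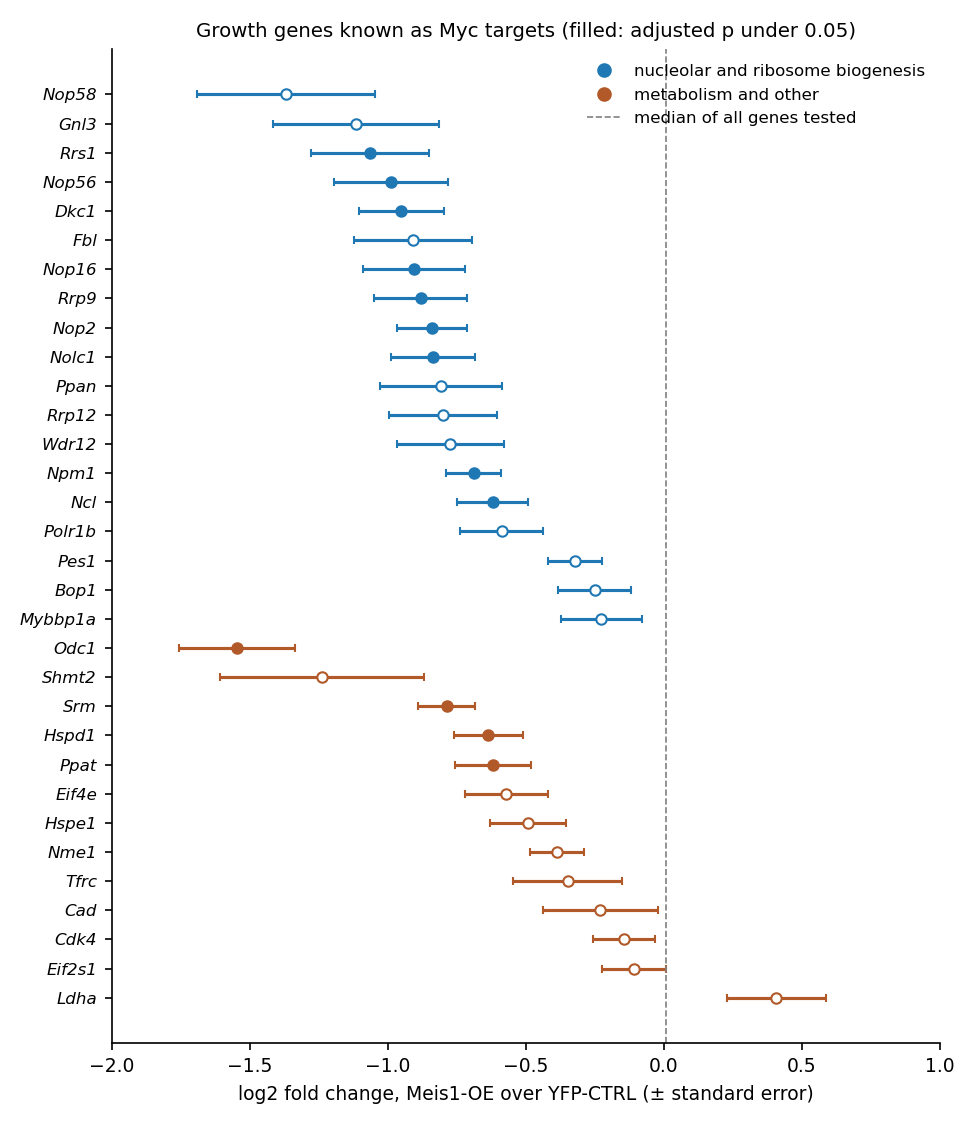
Log2 fold change, Meis1-OE over YFP-CTRL, with its standard error (horizontal axis) for 32 growth genes known as Myc targets, 19 nucleolar (blue) and 13 of metabolism and other roles (brown), filled where the adjusted p from edgeR is under 0.05. All points except Ldha lie below the median of all genes tested (dashed line at 0.01), and 13 are filled.

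The E-box was present in 8 of the 26 growth genes with a RefSeq promoter (30.8%), against 8.09% of all genes. The Meis core motif was present in 2 of the 26 (7.7%), against 21.6% of all genes with a promoter in the table. Nop2 and Hspd1 are shown as growth genes with an E-box that were lower in Meis1-OE EC, chosen after their values were seen. The other growth genes with an E-box, Eif4e, Ldha, Cdk4, Pes1, Mybbp1a and Nme1, did not pass the threshold. Among them Ldha had a positive log2 fold change (0.41). Whether the E-box goes with the fall was not tested. Nop2 encodes a ribosomal RNA methyltransferase and Hspd1 a mitochondrial chaperonin.
Nop2, chr6:125131811-125131840, plus strand: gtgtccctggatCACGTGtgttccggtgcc
Hspd1, chr1:55088306-55088335, minus strand: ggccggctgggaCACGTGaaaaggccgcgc
Their log2 fold changes were -0.84 and -0.64 (edgeR adjusted p = 0.0132 and 0.0311), and in the score-adjusted fit Nop2 was called and Hspd1 was not.

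The genes most like Myc across the 6 libraries were sought among 10222 genes with a mean of at least 5 CPM, by the Pearson correlation of log2(CPM + 1). The nearest were Trub1 (r = 0.999), Nolc1 (0.999), Sufu (0.998), Thap1 (0.998) and Nop16 (0.998). Nolc1 and Nop16 are also on the growth list. The 6 points share their normalization and fall into conditions, so these values describe the libraries and carry no test. Nolc1, a nucleolar phosphoprotein, was at 115, 104 and 107 CPM in Meis1-OE EC and at 230, 192 and 157 CPM in YFP-CTRL EC (log2 fold change -0.83, edgeR adjusted p = 0.0246).

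**Figure D4:**
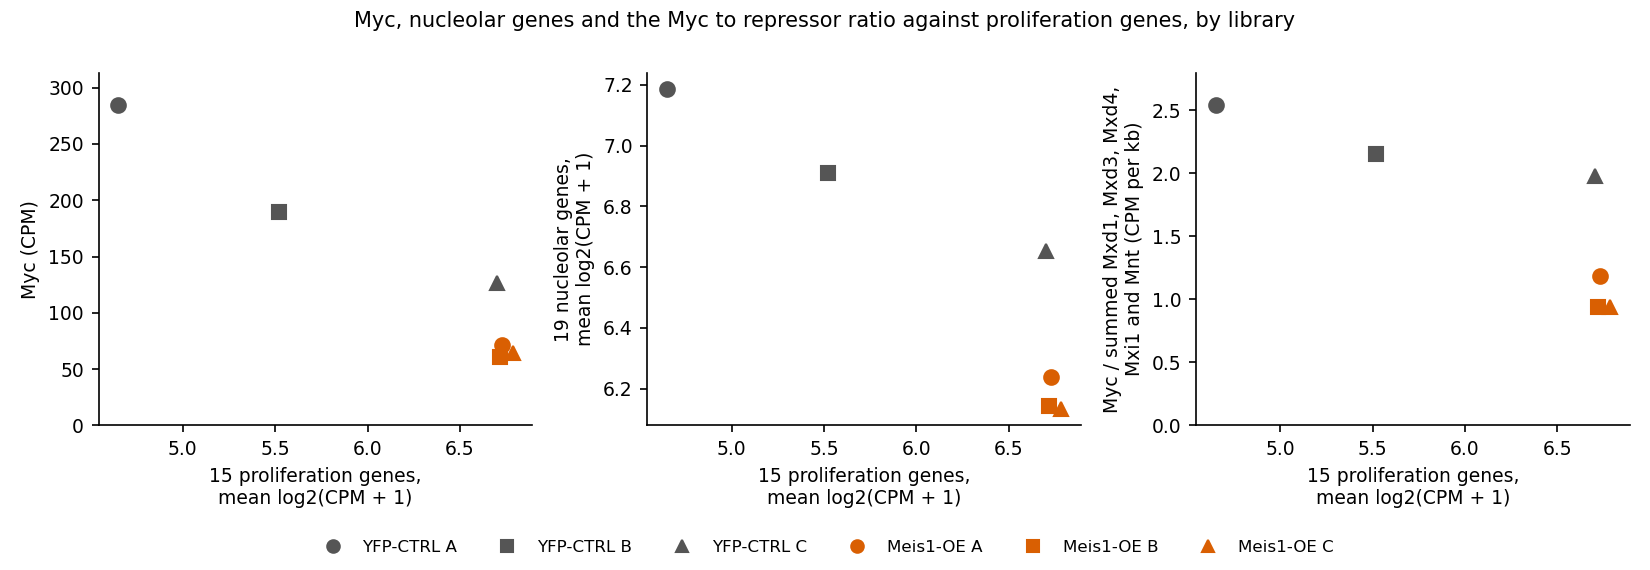
Myc level (left), mean log2(CPM + 1) of 19 nucleolar growth genes (middle, axis not starting at 0) and ratio of Myc to the summed repressors per kilobase (right) against the proliferation score of each library. The Meis1-OE libraries (orange) lie below YFP-CTRL library C (grey triangle) in each panel at a like score, with Myc at 60.9 to 71.6 CPM against 126 CPM. This comparison rests on a single control library and was not tested. That library also had the highest sum of fibroblast and smooth muscle markers.

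The calls of the 15 proliferation genes depended on control C. With all 6 libraries, all 15 had a positive log2 fold change, with a median of 0.89. Calls by edgeR were 0 in either direction (2 higher and 0 lower at an unadjusted p under 0.05). Its calls in the whole tested set took in 4.14% as higher and 2.73% as lower. Before adjustment, 2050 of those 16065 genes passed the same limit upward and 2155 downward. DESeq2 called 1 higher, Rrm2 (adjusted p = 0.0230), and its share of higher calls over the whole table was 6.21%. Without control C, edgeR called 14 of the 15 higher, with a median of 1.72, where 16.5% of all genes were higher. The mean log2(CPM + 1) of the 19 nucleolar genes was 6.24, 6.14 and 6.13 in Meis1-OE EC, against 7.19, 6.91 and 6.65 in YFP-CTRL EC. Among the controls the mean was highest in library A, whose proliferation score was lowest, and control C with a score of 6.70 remained above every Meis1-OE library.

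Partners and cofactors of the network gave few calls. Of 16 listed genes, 15 were tested, 2 were lower and 0 were higher, where 2.73% of all genes were lower and 4.14% were higher. The ATPases Ruvbl1 and Ruvbl2, which act together in chromatin remodelling with Myc and in the assembly of small nucleolar particles, were at 31.2 to 31.5 CPM and 66.0 to 72.7 CPM in Meis1-OE EC, below the 45.7 to 58.0 CPM and 104 to 115 CPM of YFP-CTRL EC. Their log2 fold changes were -0.73 and -0.63 (edgeR adjusted p = 0.0187 and 0.0167). In the score-adjusted fit they were -0.54 and -0.56 (edgeR adjusted p = 0.0362 and 0.0377), and both calls were lost without any Meis1-OE library or without control B (adjusted p = 0.0642 to 0.138). On library totals the adjusted p of Ruvbl2 was 0.0501. The list's other values, which include the corepressors Sin3a and Sin3b, the deacetylases Hdac1 and Hdac2 and the Max-binding factor Mga, did not pass, and its median was -0.22. Without control C, 7 of the 15 were lower, where 15.2% of all genes were. Mlxipl, a Mondo factor of liver, was not tested, with no library over 3 counts.

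Genes whose products act on Myc protein turnover gave 0 calls of 10 in either direction by edgeR, with a median of 0.01. By edgeR, 4.14% of all genes tested were higher and 2.73% were lower. At an unadjusted p under 0.05, 0 of the 10 were higher and 2 were lower. At that limit 2050 of all 16065 genes tested were higher and 2155 were lower. DESeq2 called 1 lower, where it called 6.14% of all genes lower. This was Usp36, a nucleolar deubiquitinase known to stabilise Myc and named here after its values were seen. It was at 54.1, 43.6 and 45.5 CPM in Meis1-OE EC and at 184, 142 and 59.1 CPM in YFP-CTRL EC (log2 fold change -1.43, standard error 0.37, adjusted p = 0.0652 from edgeR and 0.00167 from DESeq2). Protein levels were not measured in these libraries.

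Genes known to be repressed by Myc did not share a direction. Of 10 listed, 9 were tested, 2 were higher and 1 was lower, where 4.14% of all genes were higher and 2.73% were lower, and the median was 0.11. Clu, a secreted chaperone, rose from 0.765, 1.13 and 0.792 CPM in YFP-CTRL EC to 13.3, 23.8 and 22.0 CPM in Meis1-OE EC, with no overlap (log2 fold change 4.45, standard error 0.30, edgeR adjusted p = 0.00122). Cebpa, a myeloid and liver transcription factor, rose at a low level, from 0.564 to 0.854 CPM in YFP-CTRL EC to 1.75 to 2.08 CPM in Meis1-OE EC (log2 fold change 1.47, edgeR adjusted p = 0.0213). The Cebpa call was lost without any Meis1-OE library or without control B (edgeR adjusted p = 0.0808 to 0.127) and in the score-adjusted fit (0.0507). Cdkn2b, an inhibitor of the cyclin D kinases, fell. It was at 39.6, 41.4 and 43.9 CPM in Meis1-OE EC and at 100, 115 and 72.3 CPM in YFP-CTRL EC (log2 fold change -1.20, standard error 0.18, edgeR adjusted p = 0.0122), and its call was lost without any Meis1-OE library (edgeR adjusted p = 0.0633 to 0.0832). Gas1 had no count in any library.

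The best known targets of Mlx and its Mondo partners did not pass the threshold. Txnip, an arrestin-like inhibitor of glucose uptake, was at 130, 131 and 140 CPM in Meis1-OE EC and at 296, 342 and 116 CPM in YFP-CTRL EC (log2 fold change -0.91, standard error 0.35, edgeR adjusted p = 0.158). Arrdc4, its relative, was at 5.86, 7.27 and 6.31 CPM against 55.2, 34.9 and 4.20 CPM (log2 fold change -2.28, standard error 0.76, edgeR adjusted p = 0.117). In both genes control C lay below every Meis1-OE library and controls A and B lay above. Without control C the adjusted p was 0.000790 for Txnip and 0.000639 for Arrdc4 by edgeR, and in the score-adjusted fit the log2 fold changes were -0.03 and 0.34.

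Spread between libraries of a condition was wider in YFP-CTRL than in Meis1-OE EC for 8 of the 9 tested members, all except Mxd4, as it was for 79.0% of all genes. Mxd3 and Mycn had the widest control spread, with coefficients of variation of 125% and 96.8% against 5.90% and 4.62% in Meis1-OE EC. Myc, Mnt, Mxi1 and Mxd1 were highest in control A and lowest in control C, where they were at 0.444, 0.372, 0.509 and 0.647 times the level of control A. Mxd3 and Mycn ran the other way, at 15.1 and 8.04 times the level of control A. The design holds no label for a batch among these libraries, and the part of culture growth in the results was not tested.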

How the data were processed

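RNA-seq was performed by the authors on 6 libraries of aortic EC, 3 per condition in independent replicates. The table that the authors deposited gives estimated counts, without any normalization, for 54429 genes by symbol. The aligner, counting tool and annotation are not given in the sources used here. Counts were rounded to whole numbers. Conditions came from the sample labels. The columns carry letters and the labels numbers, so no pairs were formed in the main comparison.

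The fit used edgeR 4.0.16 in R 4.3.3 (filterByExpr, which kept 16065 genes, TMM factors, the two-sided quasi-likelihood test across all genes, Benjamini-Hochberg adjustment, threshold 0.05). Standard errors were derived from the F statistic. DESeq2 1.42.0 was an alternative. Both were tested on simulated data. An exact permutation test of 3 against 3 libraries cannot give a p under 0.1, and each gene was therefore tested in the fit across all genes. Exon lengths came from an NCBIM37 annotation by symbol, and promoters and overlaps of loci from RefSeq (GRCm38.p6). Figures were drawn with matplotlib 3.10.9.

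The members and the gene lists were chosen with earlier results of these data known. Named by rule were all members, both Mlx targets, up to 6 genes per list and direction past the threshold, and the 5 genes most like Myc, which also had the smallest p of the members. The split of growth genes by role was made after their values were seen.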

Additional observations from a re-analysis of the deposited data

How the results depend on the processing

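Over 15 alternatives, the log2 fold changes of Myc, Max, Mnt, Mxd3 and Mlx kept their sign (Mxd3 over 14, since it does not have 10 counts in every library). Counts higher and lower in the whole table, 665 and 438, were 1048 and 179 on library totals, 1128 and 1115 with DESeq2, 363 and 289 when the proliferation score was a covariate, 1138 and 1073 at an adjusted p under 0.1, and 168 and 40 under 0.01. Leaving out each library gave 115 to 2717 higher and 16 to 2498 lower.
Members lower, 2 in the main comparison, were 1 on library totals, 1 with no filter and 0 at an adjusted p under 0.01, and 0 to 3 (0 to 2 higher) with each library left out. Growth genes lower, 13, were 5 on library totals, 24 with DESeq2, 7 with the covariate, 25 under 0.1 and 2 under 0.01, and 0 to 25 (0 to 1 higher) with each library left out. Partners lower, 2, were 1 on library totals, 0 under 0.01 and 0 to 7 with each library left out. Turnover genes lower, 0, were 1 with no filter, with DESeq2 and under 0.1, and 0 to 2 (0 to 2 higher) with each library left out. Myc-repressed genes, 2 higher and 1 lower, were 1 higher with the covariate, 2 lower with no filter, with DESeq2 and under 0.1, 1 higher and 0 lower under 0.01, and 1 to 3 higher and 0 to 3 lower with each library left out. Fits without a library have fewer samples. The cause of the other differences was not tested.
Signs turned for Mycn (0.14 on library totals, -0.46 to 1.12 with each library left out), Mxd4 (0.064 on library totals, -0.14 to 0.046 with each library left out), and, with the covariate, Mxd1 (0.14), Mxi1 (0.065) and Arrdc4 (0.34).
With the column letter as a replicate block, 189 genes were lower, 1 member (Myc, adjusted p = 0.0267 from edgeR) and 8 growth genes were lower, Max was past the threshold no longer (edgeR adjusted p = 0.0939) and Mycn was at 0.42. Same-letter libraries deviated together at r = 0.245, 0.190 and 0.0809 across genes for A, B and C. Different-letter libraries gave r from -0.301 to 0.249, the highest for Meis1-OE library C with control B and the others negative. Deviations from a mean of 3 libraries depend on each other, so these values cannot settle whether the letters mark pairs. The labels give no pairs, and the letters were not taken as pairs.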
